A study of Rattus norvegicus with 30 samples.

Results

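Cholesterol synthesis runs from acetyl-CoA through mevalonate to squalene, and the enzymes after squalene turn that chain into the ring system of the sterols and then trim it to cholesterol. The 10 genes described here encode those later enzymes in pathway order: Sqle, Lss, Cyp51, Tm7sf2, Msmo1, Nsdhl, Hsd17b7, Ebp, Sc5d and Dhcr7. They were taken as the listed symbols with a row in the count table, by name and not by their values, and all 10 had a row among 17455 genes. All 10 also passed the filter on low counts and so belong to the 12547 genes tested. As background, the brain makes nearly all of its own cholesterol, because lipoproteins of the blood do not cross the blood-brain barrier, and much of it sits in myelin. Astrocytes and oligodendrocytes are known as strong producers of sterols. Most genes of the pathway respond to the transcription factor SREBP2 (Srebf2), which is cleaved and moves to the nucleus when the sterol content of the endoplasmic reticulum is low.

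PolyA RNA of dorsal hippocampus was sequenced in 30 libraries from rats, labelled alzheimer or wildtype by genotype and western or chow by diet. The alzheimer animals belong to TgF344-AD, a Fischer rat line that expresses mutant human APP under the mouse prion promoter, which is not restricted to a single brain cell type. The western diet was set against standard chow, and no age stands in the labels. The labels name 2 cohorts, with 16 libraries in cohort 2 and 14 in cohort 1. Male groups were alzheimer on western (replicates 1, 6, 23 and 28), alzheimer on chow (3, 8, 25 and 30), wildtype on western (2, 5, 24 and 27) and wildtype on chow (4, 7, 26 and 29). Female groups were alzheimer on western (replicates 11, 18 and 21), alzheimer on chow (10, 14, 16 and 19), wildtype on western (12, 17 and 22) and wildtype on chow (9, 13, 15 and 20). The labels do not say in words that each library came from a separate animal, so p-values measure the spread between libraries.

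Total counts ran from 13.9 to 31.4 M (M for mega) per library, with a median of 17.8 M. App, counted over rat and any human reads together, stood at 3137 to 3398 CPM (counts per M after TMM scaling of library sizes) in 15 alzheimer libraries and at 1548 to 1782 CPM in 15 wildtype libraries, which matches the genotype labels. Markers of choroid plexus, a tissue beside the hippocampus, summed to between 2.23 and 60.7 CPM, highest in male alzheimer chow replicates 30 and 3 and female wildtype chow replicate 20. Where an enzyme lost its genotype call without those 3 libraries, in all rats, on chow or in males, its values without them are given with that result. The RefSeq table for the rat assembly GRCr8 lists a pseudogene of Cyp51 (Cyp51a1-ps1) and one of Nsdhl (Nsdhl-ps1), neither with a row in the count table, so some reads of these genes could have been lost or shared and their levels are uncertain to that extent.

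Genotype was the factor along which the enzymes differed. Averaged over sex and diet, 8 of the 10 enzymes were higher in alzheimer than in wildtype and 0 were lower (edgeR's quasi-likelihood test, Benjamini-Hochberg adjusted p under 0.05 over all tested genes). Of all tested genes 8.03% were called in either direction, made up of 4.14% higher and 3.89% lower in alzheimer. The estimates of all 10 enzymes were positive, from 0.050 to 0.22 log2 with a median of 0.17, against a median of 0.0020 log2 over all genes tested. Only Cyp51 and Hsd17b7 missed the threshold. These are small differences, between 3.53% and 16.9% in level. In bulk tissue, more or fewer cells of a type and more or less RNA per cell cannot be told apart.

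**Figure D1:**
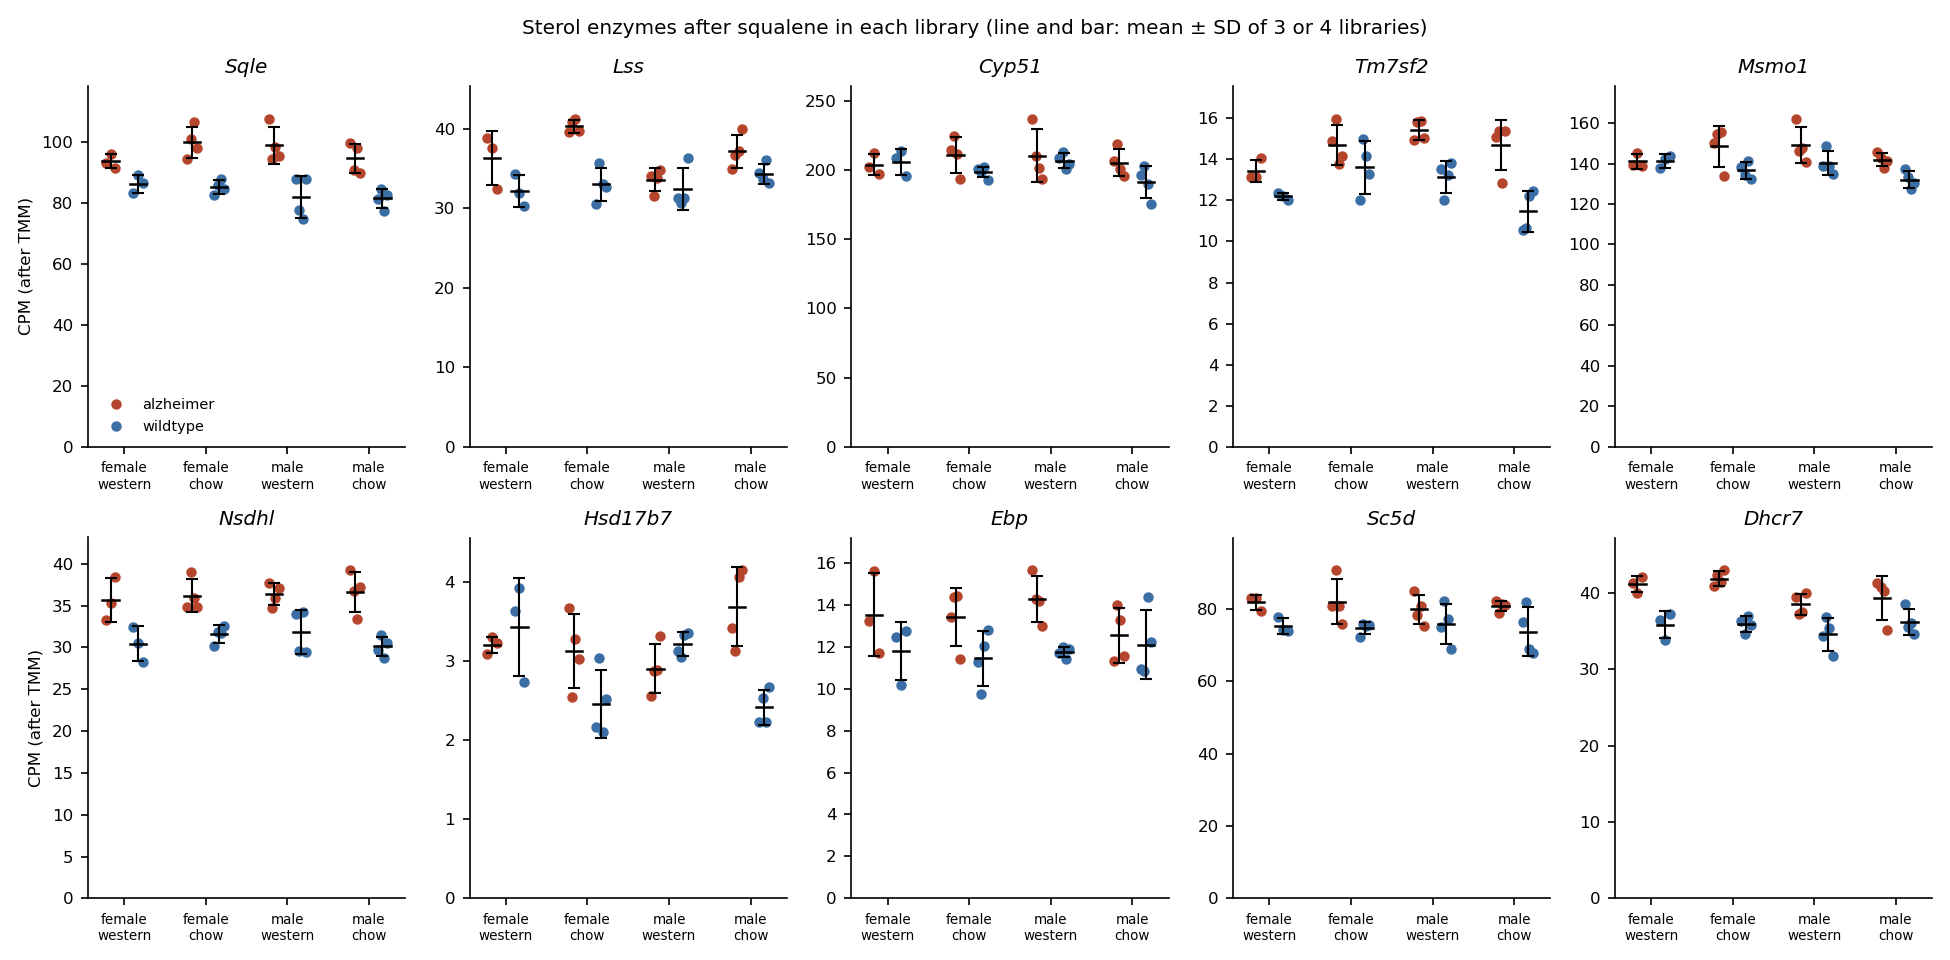
Levels in CPM (vertical axis, from 0) of the 10 enzymes, 1 panel per gene, with the 4 combinations of sex and diet along the horizontal axis and alzheimer (red) left of wildtype (blue) in each. Points are libraries, and lines with bars are means with SD of 3 or 4 libraries. Every alzheimer point of Sqle lies above every wildtype point, those of Cyp51 overlap in all 4 combinations, and Hsd17b7 is apart by genotype in males on chow but not in the other 3 combinations.

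Squalene epoxidase, encoded by Sqle, adds the oxygen that commits squalene to sterols and is a known control point of the pathway. Its level was 90.1 CPM at the lowest, 96.2 at the median and 108 at the highest of 15 alzheimer libraries, against 74.7, 84.6 and 89.1 CPM in 15 wildtype libraries. No alzheimer library overlapped the wildtype range, a separation in this direction shown by 0.128% of all tested genes. The log2 fold change was 0.21 ± 0.027 (SE; edgeR adjusted p = 3.11e-06), a rise of 15.5%. Among the 12547 genes ordered by p, Sqle was number 41, the first of the 10 enzymes.

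Lanosterol synthase (Lss) folds the epoxide into the first sterol, lanosterol. It ran from 31.5 CPM over a median of 37.3 to 41.3 CPM in alzheimer, and from 30.3 over 33.1 to 36.3 CPM in wildtype, and it rose by 0.16 ± 0.033 log2 (edgeR adjusted p = 0.00238). The ranges overlapped, with 14 of 15 alzheimer libraries above the wildtype mean of their own sex and diet.

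Next in the order come the enzymes that strip methyl groups from the sterol core. Cyp51, the cytochrome P450 that demethylates lanosterol, averaged 208 ± 12.3 CPM in alzheimer and 200.3 ± 9.71 CPM in wildtype (SD, n = 15 each). Its difference of 0.050 ± 0.023 log2 missed the threshold (edgeR adjusted p = 0.191), and its 95% interval of 0.0029 to 0.097 log2 left room for a rise about the size of that of Msmo1 but not for that of Sqle. Tm7sf2, the sterol reductase that acts on the product of Cyp51, ran from 12.87 to 15.98 CPM (median 14.97) in alzheimer and from 10.55 to 15.005 CPM (median 12.36) in wildtype. It rose by 0.21 ± 0.043 log2 (edgeR adjusted p = 0.00184), and 15 of 15 alzheimer libraries were above the matching wildtype mean although the ranges overlapped.

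Methylsterol monooxygenase (Msmo1), which starts removal of the methyl pair at the fourth carbon, showed the smallest rise among the called enzymes. It averaged 145 ± 7.63 CPM in alzheimer and 137 ± 5.47 CPM in wildtype, a difference of 0.078 ± 0.023 log2 (edgeR adjusted p = 0.0274). This call was lost without 1 of 4 libraries (female wildtype western replicate 12, female wildtype chow 13, female alzheimer western 18 or male wildtype chow 26; adjusted p = 0.0503 to 0.0744) and without the 3 libraries highest in choroid plexus markers (adjusted p = 0.102).

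The oxidised methyl groups are released by Nsdhl, a sterol dehydrogenase and decarboxylase whose gene lies on the X chromosome. Nsdhl reached 33.3 CPM at the lowest, 36.0 at the median and 39.2 at the highest alzheimer library, against 28.3, 30.6 and 34.2 CPM in wildtype. The 2 ranges touched only between 33.3 and 34.2 CPM, and 15 of 15 alzheimer libraries exceeded the matching wildtype mean. The rise of 0.22 ± 0.033 log2 (edgeR adjusted p = 2.08e-05) was the largest estimate of the 10 enzymes, though within the error of those of Sqle and Tm7sf2. Hsd17b7 reduces the ketone that Nsdhl leaves behind. Only 31 to 116 reads per library fell on it, the fewest of the 10, and its mean was 3.23 ± 0.465 CPM in alzheimer libraries against 2.84 ± 0.564 CPM in wildtype. Its difference of 0.17 ± 0.084 log2 did not pass (edgeR adjusted p = 0.214), and 9 of 15 alzheimer libraries were above the matching wildtype mean.

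The last steps move and reduce the double bonds of the ring. Ebp, the X-linked sterol isomerase, averaged 13.4 ± 1.42 CPM in alzheimer and 11.8 ± 1.14 CPM in wildtype and rose by 0.19 ± 0.057 log2 (edgeR adjusted p = 0.0287). Leaving out any 1 of 4 libraries lifted its adjusted p to between 0.0505 and 0.0841 (male wildtype chow replicate 4, female wildtype chow 13, female wildtype western 17 and female alzheimer western 18). Sc5d, the lathosterol desaturase, averaged 81.1 ± 3.71 CPM in alzheimer and 74.9 ± 4.26 CPM in wildtype, a rise of 0.12 ± 0.027 log2 (edgeR adjusted p = 0.00519).

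Dhcr7 closes the list: it is the reductase that is deficient in Smith-Lemli-Opitz syndrome. Alzheimer libraries lay at 35.1 to 43.0 CPM with a median of 40.8, and wildtype libraries at 31.7 to 38.6 CPM with a median of 35.9. The rise was 0.17 ± 0.028 log2 (edgeR adjusted p = 0.000104), with 14 of 15 alzheimer libraries above the matching wildtype mean. The 10 enzymes summed to 648 to 736 CPM in alzheimer and 582 to 646 CPM in wildtype libraries, a sum that the abundant reads of Cyp51, Msmo1 and Sqle dominate.

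Within each cohort the estimates of all 10 enzymes were positive as well. Cohort 2 alone called 4 (Sqle, Nsdhl, Sc5d and Dhcr7) and cohort 1 alone called 1 (Sqle, 0.21 ± 0.044 log2, edgeR adjusted p = 0.0284). Over all genes, 573 were called in cohort 2 alone and 72 in cohort 1 alone, against 1007 in both together.

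To show the sequence around the start of these genes, the RefSeq promoter windows of the assembly GRCr8 were searched, each from 250 bases before to 50 bases after the annotated start. Of the 10 enzymes 9 matched the table by symbol. Motifs searched on both strands were CCAAT, the box bound by NF-Y; GGGCGG, bound by Sp1; TCACNCCAC, a form of the sterol regulatory element; and TCACNNCA, a looser form of it that every TCACNCCAC also holds. Windows are printed for Nsdhl with the largest genotype estimate, Msmo1 and Cyp51 with the smallest, and Hsd17b7, whose genotype estimates lay furthest apart between the diets. Each reads 5′ to 3′ along the gene, with every motif match in capitals. Nsdhl lies at chrX:155817110-155817409 on the + strand, Msmo1 at chr16:29746863-29747162 on the + strand, Cyp51 at chr4:30991443-30991742 on the + strand and Hsd17b7 at chr13:84722705-84723004 on the - strand.
Nsdhl: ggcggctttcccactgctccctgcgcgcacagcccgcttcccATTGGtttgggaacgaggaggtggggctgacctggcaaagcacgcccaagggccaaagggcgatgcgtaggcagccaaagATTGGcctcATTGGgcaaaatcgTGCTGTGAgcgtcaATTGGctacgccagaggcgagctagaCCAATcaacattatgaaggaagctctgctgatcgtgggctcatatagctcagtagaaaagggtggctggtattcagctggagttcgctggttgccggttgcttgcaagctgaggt
Msmo1: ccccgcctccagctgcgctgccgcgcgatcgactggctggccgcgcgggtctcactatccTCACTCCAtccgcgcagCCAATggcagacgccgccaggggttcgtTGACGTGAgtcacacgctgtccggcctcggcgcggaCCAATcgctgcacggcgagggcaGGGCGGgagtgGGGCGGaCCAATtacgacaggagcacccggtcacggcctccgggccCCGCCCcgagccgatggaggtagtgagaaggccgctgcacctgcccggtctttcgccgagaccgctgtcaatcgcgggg
Cyp51: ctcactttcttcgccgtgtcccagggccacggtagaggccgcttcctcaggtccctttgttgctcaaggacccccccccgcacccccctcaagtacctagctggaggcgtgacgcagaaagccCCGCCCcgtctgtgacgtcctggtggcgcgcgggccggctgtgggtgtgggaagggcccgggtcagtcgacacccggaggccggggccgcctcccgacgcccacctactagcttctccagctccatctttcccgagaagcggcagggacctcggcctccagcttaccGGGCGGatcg
Hsd17b7: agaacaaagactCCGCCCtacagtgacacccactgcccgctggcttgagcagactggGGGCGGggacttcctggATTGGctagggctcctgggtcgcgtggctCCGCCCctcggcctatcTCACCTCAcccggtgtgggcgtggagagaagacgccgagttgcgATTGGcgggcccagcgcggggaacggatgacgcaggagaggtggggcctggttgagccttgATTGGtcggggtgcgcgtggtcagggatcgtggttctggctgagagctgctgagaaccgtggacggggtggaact

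CCAAT was present in 7 of the 9 windows and in 37.5% of 33469 rat promoter windows of the same length, and GGGCGG in 8 of 9 against 33.1%. Nsdhl held 5 copies of CCAAT and no GGGCGG, while Msmo1 and Hsd17b7 held 3 of each. Cyp51 and Dhcr7 were the pair without CCAAT, and both held 2 copies of GGGCGG, which in Dhcr7 overlap by 1 base. TCACNNCA was found in Msmo1, Nsdhl, Hsd17b7 and Sc5d, 4 of 9 against 14.6%, and TCACNCCAC in 0 of 9 against 1.12%. A match describes these letters only and is neither a shown binding site nor a cause of a change, and a missing match says nothing of the factor outside the window.

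The genotype difference was then examined on each diet. On chow 6 of 10 enzymes were higher in alzheimer and 0 lower (0.901% of all tested genes called, 0.542% higher): Sqle, Lss, Tm7sf2, Nsdhl, Hsd17b7 and Dhcr7. On the western diet 3 of 10 were higher and 0 lower (3.17% called, 1.51% higher): Sqle, Nsdhl and Dhcr7. The median estimate of the 10 was 0.19 log2 on chow and 0.14 log2 on western, beside 0.0023 and 0.0027 log2 over all genes. A gene called on 1 diet only is not shown to differ between diets, and the interaction of genotype with diet called 0 of 10 enzymes by edgeR, DESeq2 and limma-voom, and 0% of all tested genes by edgeR. At an unadjusted p under 0.05 it gave 1, Hsd17b7. The share of all genes at that unadjusted threshold is not given here or below, so such counts are values only.

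**Figure D2:**
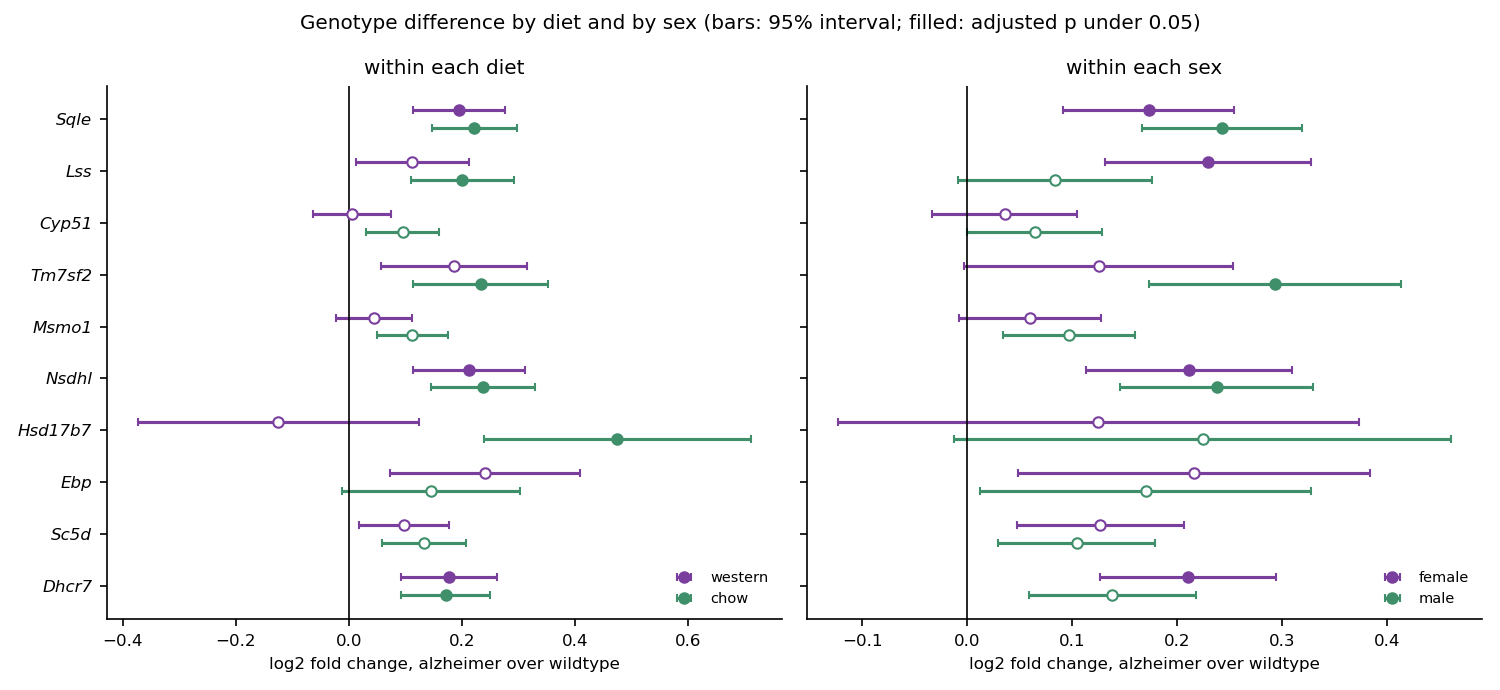
Genotype log2 fold changes (alzheimer minus wildtype) of the 10 enzymes within each diet (left panel) and each sex (right panel), as points with 95% intervals, filled where the edgeR adjusted p was under 0.05. All estimates but 1 are above 0, and the exception is Hsd17b7 on the western diet at -0.13, beside 0.47 on chow.

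Sqle, Nsdhl and Dhcr7 gave nearly the same estimate on both diets. Sqle rose by 0.19 ± 0.040 log2 on western (edgeR adjusted p = 0.00471) and by 0.22 ± 0.037 on chow (adjusted p = 0.000497). Nsdhl rose by 0.21 ± 0.048 on western (edgeR adjusted p = 0.0106) and by 0.24 ± 0.045 on chow (adjusted p = 0.00237), a call that was lost without the 3 libraries highest in choroid plexus markers (0.21 log2, adjusted p = 0.0540). For Dhcr7 the rise was 0.18 ± 0.042 on western (edgeR adjusted p = 0.0127), lost without female wildtype western replicate 17 (adjusted p = 0.0598), and 0.17 ± 0.039 on chow (adjusted p = 0.0158).

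Several calls on chow depended on which libraries were used. Without female wildtype chow replicate 9 the count of 6 fell to 3. Without the 3 libraries highest in choroid plexus markers, all of them on chow, it was 2: Sqle and Dhcr7 were still called, while Nsdhl, Lss (0.19 log2, edgeR adjusted p = 0.118), Tm7sf2 (0.20 log2, adjusted p = 0.364) and Hsd17b7 (0.46 log2, adjusted p = 0.225) were not. Tm7sf2 on chow (0.23 ± 0.059 log2, edgeR adjusted p = 0.0435) lost its call without any 1 of 19 libraries (adjusted p = 0.0508 to 0.130), Hsd17b7 without any 1 of 9 (replicates 4, 9, 10, 15, 16, 20, 25, 26 and 30; 0.0595 to 0.111), Dhcr7 without replicate 3, 13 or 29 (0.0518 to 0.0535) and Lss without replicate 9 (0.0524). Each cohort alone called 0 of the 10 on chow. On western cohort 2 alone called 1 and cohort 1 alone 0. The share of all genes called in these subsets of libraries is not given, so the counts are values only.

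Hsd17b7 showed the widest spread across the 8 groups. Alzheimer males on western had 2.55, 2.87, 2.88 and 3.31 CPM, and wildtype males on western had 3.13, 3.05, 3.33 and 3.35 CPM. Alzheimer males on chow had 3.42, 3.12, 4.07 and 4.15 CPM, against 2.23, 2.53, 2.23 and 2.67 CPM in wildtype males on chow. The male ranges overlapped on western and were apart on chow, where alzheimer was higher, as in 1.55% of all tested genes. Alzheimer females on western had 3.09, 3.30 and 3.22 CPM, and wildtype females on western had 3.63, 3.92 and 2.74 CPM. Alzheimer females on chow had 3.67, 2.54, 3.28 and 3.02 CPM, against 2.16, 3.04, 2.10 and 2.52 CPM in wildtype females on chow. Both female pairs overlapped.

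Over both sexes, the genotype difference of Hsd17b7 was -0.13 ± 0.12 log2 on western (edgeR adjusted p = 0.657) and 0.47 ± 0.12 on chow (adjusted p = 0.0335). The difference between these, -0.60 ± 0.17 log2, had an unadjusted p of 0.00117 and ranked number 7 of all tested genes in that contrast, but its edgeR adjusted p was 1. In wildtype the diet difference, western minus chow, was 0.43 ± 0.12 log2 (unadjusted p = 0.00119, edgeR adjusted p = 0.935), with 3.31 ± 0.388 CPM on western (n = 7) and 2.43 ± 0.317 CPM on chow (n = 8). In alzheimer it was -0.17 ± 0.12 log2 (edgeR adjusted p = 1), with 3.03 ± 0.279 CPM on western (n = 7) and 3.41 ± 0.539 CPM on chow (n = 8).

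Split by sex, 4 of 10 enzymes were higher in alzheimer females (Sqle, Lss, Nsdhl and Dhcr7; 2.57% of all tested genes called, 1.24% higher) and 3 of 10 in alzheimer males (Sqle, Tm7sf2 and Nsdhl; 1.25% called, 0.685% higher). None was lower in either sex. The interaction of genotype with sex called 0 of 10 by edgeR, DESeq2 and limma-voom, beside 0% of all tested genes by edgeR, and gave 1 at an unadjusted p under 0.05. That one was Lss: its genotype difference was 0.23 ± 0.048 log2 in females (edgeR adjusted p = 0.00583) and 0.083 ± 0.045 in males (adjusted p = 0.450), and these differed by 0.15 ± 0.066 (unadjusted p = 0.0349, edgeR adjusted p = 0.999). Lss averaged 38.6 ± 2.97 CPM in alzheimer females (n = 7) and 32.7 ± 1.95 CPM in wildtype females (n = 7), and 35.4 ± 2.55 CPM in alzheimer males (n = 8) and 33.4 ± 2.17 CPM in wildtype males (n = 8).

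Tm7sf2 leaned the other way, with 0.13 ± 0.063 log2 in females (edgeR adjusted p = 0.319) and 0.29 ± 0.059 in males (adjusted p = 0.00467). Their difference was -0.17 ± 0.086 log2 (unadjusted p = 0.0591). In females Nsdhl lost its call without female alzheimer western replicate 21 or female wildtype western replicate 22 (adjusted p = 0.0547 to 0.0561). Without the 3 libraries highest in choroid plexus markers Sqle was the 1 enzyme still called in males. Tm7sf2 in males then stood at 0.27 log2 (edgeR adjusted p = 0.0727) and Nsdhl at 0.21 log2 (adjusted p = 0.0594), both short of the threshold. Each cohort alone called 0 or 1 enzymes per sex. For these subsets of libraries the share of all genes called is not given, so the counts are values only.

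The 8 groups also allow 4 genotype comparisons at a fixed sex and diet, with 3 or 4 libraries a side. Sqle and Nsdhl were the enzymes whose alzheimer libraries lay wholly above the wildtype libraries in all 4 of them, which 0.191% of all tested genes did in that direction. For Sqle, alzheimer males had 108, 94.5, 98.5 and 95.4 CPM on western, against 87.9, 77.9, 74.7 and 87.9 CPM in wildtype males. On chow, alzheimer males had 99.7, 91.1, 98.0 and 90.1 CPM, against 81.5, 84.8, 77.3 and 82.6 CPM in wildtype males. The lowest alzheimer male was thus above the highest wildtype male on both diets. Alzheimer females had 93.3, 96.2 and 91.6 CPM on western, against 83.3, 89.1 and 86.7 CPM in wildtype females. On chow, alzheimer females had 94.6, 101, 107 and 98.2 CPM, against 82.8, 85.9, 88.0 and 84.6 CPM in wildtype females. The gap was narrowest in females on western.

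Nsdhl in alzheimer males had 37.8, 34.8, 35.9 and 37.1 CPM on western, against 34.0, 29.6, 34.2 and 29.5 CPM in wildtype males. On chow, alzheimer males had 39.2, 36.7, 33.4 and 37.2 CPM, against 29.7, 31.5, 28.7 and 30.5 CPM in wildtype males. Each set of alzheimer libraries was above its wildtype set. Alzheimer females had 33.3, 35.3 and 38.5 CPM on western, against 32.5, 30.6 and 28.3 CPM in wildtype females, and 34.9, 39.1, 36.0 and 34.8 CPM on chow, against 30.2, 31.9, 31.8 and 32.6 CPM in wildtype females. The overlap seen over all 30 libraries therefore came from libraries of different sex or diet.

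Each of the 4 comparisons had 5 enzymes whose libraries separated in favour of alzheimer and 0 that separated the other way; among all tested genes the share higher was 3.63% in males on western, 1.55% in males on chow, 8.31% in females on western and 3.01% in females on chow. By edgeR, 1 of 10 was called in males on western (Sqle, 0.27 ± 0.053 log2, adjusted p = 0.00638; 0.829% of all genes called) and 1 in males on chow (Nsdhl, 0.28 ± 0.064, adjusted p = 0.0473; 0.239%). In females on chow 2 were called (Lss, 0.29 ± 0.063, edgeR adjusted p = 0.0248, and Sqle, 0.23 ± 0.052, adjusted p = 0.0398; 0.367% of all genes called). In females on western 0 were called by edgeR, DESeq2 and limma-voom (0.263% of all genes called by edgeR). At an unadjusted p under 0.05, where the share of all genes is not given, there were 4 in females on western. The call in males on chow was lost without any 1 of 22 libraries, and the count in females on chow ran from 0 to 3 as single libraries were left out, lowest without replicate 9, 14, 15, 16, 19 or 20. Without the 3 libraries highest in choroid plexus markers 0 enzymes were called in either sex on chow, where the share of all genes is not given.

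Diet itself, averaged over genotype and sex, called 0 of the 10 enzymes by edgeR, DESeq2 and limma-voom, and 0.00797% of all tested genes by edgeR. At an unadjusted p under 0.05 there was 1, Lss, with 30.3 CPM at the lowest, 33.2 at the median and 38.9 at the highest of 14 western libraries, against 30.6, 35.9 and 41.3 CPM in 16 chow libraries. The ranges overlapped almost wholly, and 2 of 14 western libraries exceeded the chow mean of their own sex and genotype. Its difference was -0.11 ± 0.033 log2 (unadjusted p = 0.00304, rank 37 of all tested genes, edgeR adjusted p = 0.822). The other 9 estimates lay between -0.028 and 0.13 log2. For Sqle the 95% interval of the diet difference was -0.056 to 0.055 log2, and for Nsdhl -0.067 to 0.068 log2, so at this depth a diet difference as large as their genotype rise lay outside the interval. Within alzheimer or wildtype alone, diet called 0 of 10 by edgeR, DESeq2 and limma-voom (0% of all genes in each by edgeR), with 1 at an unadjusted p under 0.05 in alzheimer and 3 in wildtype. Within either sex it called 0 of 10 by the same tools, beside 0.183% of all genes in females and 0.128% in males by edgeR. At an unadjusted p under 0.05, where the share of all genes is not given, there was 1 enzyme in females and 4 in males.

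**Figure D3:**
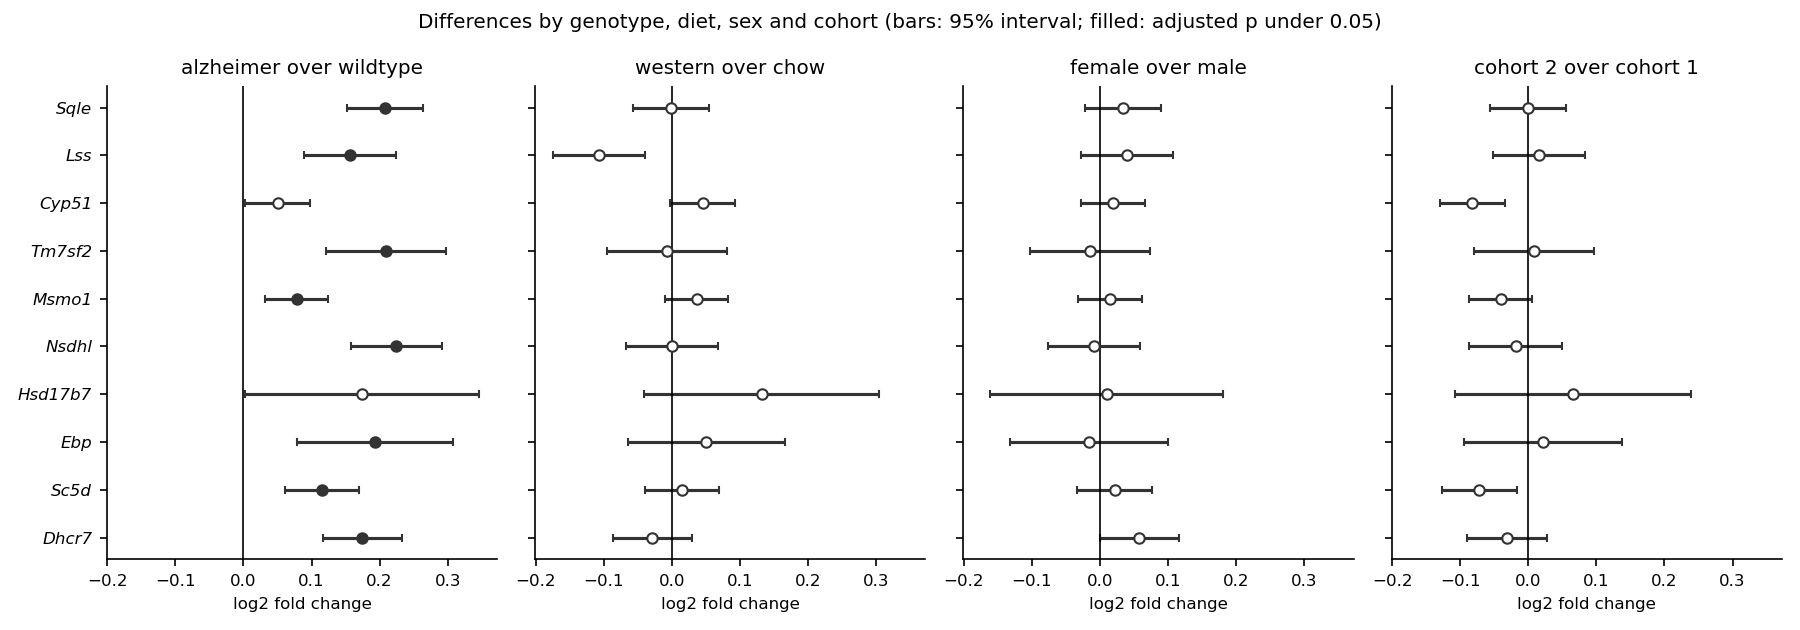
Log2 fold changes of the 10 enzymes with 95% intervals for genotype (alzheimer minus wildtype), diet (western minus chow), sex (female minus male) and cohort (cohort 2 minus cohort 1). The genotype estimates all lie to the right of 0, and those of the other 3 factors lie on both sides of 0, with none of them filled (filled: edgeR adjusted p under 0.05).

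Females and males differed in 0 of 10 enzymes by edgeR, DESeq2 and limma-voom, with 0 at an unadjusted p under 0.05, and in 0.837% of all tested genes by edgeR. Estimates ran from -0.016 to 0.058 log2, the highest for Dhcr7 (0.058 ± 0.029, edgeR adjusted p = 0.340), which stood at 38.7 ± 3.14 CPM in females (n = 14) and 37.2 ± 2.704 CPM in males (n = 16). Nsdhl and Ebp, both on the X chromosome, differed by -0.0090 ± 0.033 and -0.016 ± 0.057 log2 between the sexes. The interaction of diet with sex called 0 of 10 by the same 3 tools, against 1.23% of all tested genes by edgeR, and 1 at an unadjusted p under 0.05. This was Tm7sf2, where the diet difference was -0.15 ± 0.063 log2 in females (edgeR adjusted p = 0.462) and 0.13 ± 0.059 in males (adjusted p = 0.403), a contrast of -0.28 ± 0.087 log2 (edgeR adjusted p = 0.107).

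By group, Tm7sf2 had 13.1, 13.1 and 14.1 CPM in alzheimer females on western and 14.9, 15.98, 13.8 and 14.2 CPM in alzheimer females on chow. Wildtype females had 12.4, 12.2 and 12.02 CPM on western and 12.01, 15.005, 14.1 and 13.3 CPM on chow. In both female genotypes the western mean was below the chow mean, with overlapping libraries. Alzheimer males had 14.97, 15.8, 15.9 and 15.03 CPM on western and 15.1, 15.4, 12.9 and 15.4 CPM on chow, and wildtype males had 13.5, 12.02, 13.2 and 13.8 CPM on western and 10.5, 10.7, 12.2 and 12.4 CPM on chow. In males both western means were above the chow means, again with overlap.

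Between the cohorts 0 of 10 enzymes were called by edgeR, beside 0.0877% of all tested genes by the same tool. With limma-voom 0 were called and with DESeq2 1, and 2 had an unadjusted edgeR p under 0.05. The share of all genes is not given for these last counts. Cyp51 had the largest difference, -0.082 ± 0.023 log2 in cohort 2 minus cohort 1 (edgeR adjusted p = 0.118), with 199 ± 9.50 CPM in cohort 2 and 210.2 ± 10.98 CPM in cohort 1. That exceeds its genotype difference of 0.050 log2. Cohort was a term in the fit and every group held libraries of both cohorts.

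The rest of the pathway was followed through lists of named genes. Of the 9 enzymes from acetyl-CoA to squalene, 7 were higher in alzheimer and 0 lower, with a median of 0.21 log2, beside 4.14% higher and 3.89% lower over all tested genes. Fdft1, the squalene synthase that makes the substrate of Sqle, averaged 137 ± 7.39 CPM in alzheimer and 107 ± 3.36 CPM in wildtype (0.36 ± 0.024 log2, edgeR adjusted p = 5.10e-13). Acat2, the thiolase that joins acetyl-CoA units, rose by 0.37 ± 0.036 and Hmgcs1, which makes HMG-CoA, by 0.25 ± 0.025 (edgeR adjusted p at most 1.33e-08). Pmvk and Mvk, the mevalonate kinases, missed the threshold at 0.041 ± 0.029 and 0.093 ± 0.039 log2.

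**Figure D4:**
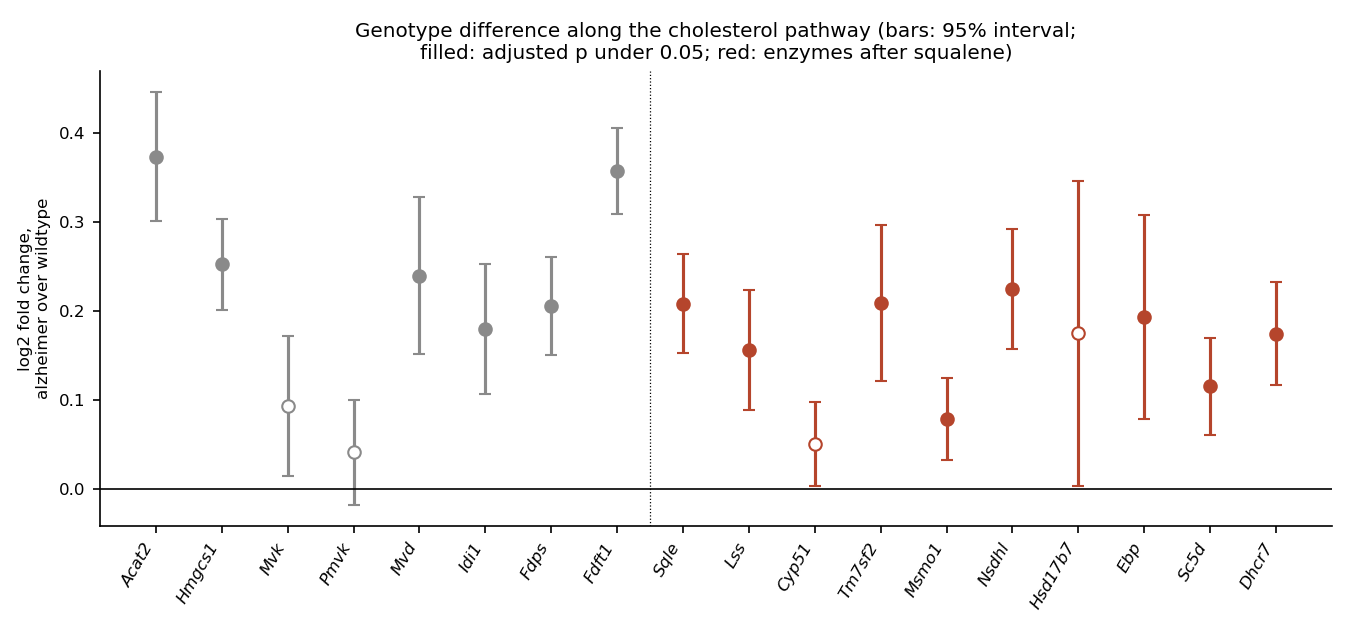
Genotype log2 fold changes (alzheimer minus wildtype) with 95% intervals for 8 of the 9 enzymes before squalene (grey) and the 10 after it (red), filled where the edgeR adjusted p was under 0.05. Every plotted estimate is above 0, and among the 10 after squalene Cyp51 at 0.050 and Msmo1 at 0.078 are the smallest.

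Among 11 tested genes of the accessory and last steps, 3 were higher in alzheimer and 0 lower (4.14% and 3.89% over all tested genes), with a median of 0.057 log2. Cyb5b, a cytochrome b5, rose by 0.090 ± 0.022, and Pgrmc1, a heme-binding membrane protein that binds P450 enzymes such as Cyp51, by 0.057 ± 0.018 log2 (edgeR adjusted p at most 0.0442). In the list of SREBP control and sterol uptake 5 of 16 tested genes were higher and 1 lower, with a median of 0.026 log2. Stard4, a sterol carrier, rose by 0.44 ± 0.044, Insig1, which retains the SREBP complex in the endoplasmic reticulum, by 0.25 ± 0.029, and Srebf2 itself by 0.16 ± 0.019 log2 (edgeR adjusted p at most 6.10e-07). Nfyb, a subunit of the CCAAT-binding factor NF-Y, was the 1 that fell (-0.095 ± 0.030, edgeR adjusted p = 0.0442).

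In the list of sterol turnover and efflux 0 of 16 genes were higher and 2 lower in alzheimer, beside 4.14% higher and 3.89% lower over all tested genes, and the median of the list was 0.022 log2. Apoe, the main apolipoprotein of the brain, averaged 3987 ± 171 CPM in alzheimer and 4328 ± 286 CPM in wildtype (-0.12 ± 0.025 log2, edgeR adjusted p = 0.00264). Cyp46a1, the neuronal hydroxylase through which cholesterol leaves the brain, averaged 294 ± 12.2 CPM in alzheimer and 314 ± 10.9 CPM in wildtype (-0.094 ± 0.022, edgeR adjusted p = 0.00476). In the diet contrast edgeR called 0 genes of these 4 lists, with 1 of them, in the turnover list, at an unadjusted p under 0.05. Sex called Srebf2 (0.078 ± 0.020, edgeR adjusted p = 0.0452) and Insig1 (0.12 ± 0.030, adjusted p = 0.0493), both higher in females, and diet by sex called Hsd17b12 (-0.19 ± 0.049, adjusted p = 0.0382), an enzyme of fatty acid elongation listed with the accessory genes.

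Markers of the cells that make sterols were read beside these results, against 4.14% higher and 3.89% lower in alzheimer over all tested genes. With 3 to 10 markers a list, counts of 1 or 2 are given as values only. For oligodendrocytes 1 of 10 markers was lower and 0 higher in alzheimer (Mbp, -0.19 ± 0.059 log2, edgeR adjusted p = 0.0419), and the summed level was 8400 to 13786 CPM in alzheimer and 8487 to 15137 CPM in wildtype. For astrocytes 1 of 7 was higher (Gfap, 0.17 ± 0.032) and 2 lower (S100b and Slc1a3), with sums of 4364 to 5161 CPM in alzheimer and 4159 to 5089 CPM in wildtype. For neurons 1 of 6 was higher (Syt1), with 5939 to 6732 CPM in alzheimer and 6016 to 6851 CPM in wildtype. Microglia had 2 of 5 lower (Itgam and Aif1; 158 to 210.2 CPM in alzheimer and 173 to 227 CPM in wildtype) and endothelial cells 2 of 3 lower (Cldn5 and Flt1; 182 to 232 CPM in alzheimer and 185 to 263 CPM in wildtype). Oligodendrocyte precursors had 0 of 4 called (131 to 164 CPM in alzheimer and 130 to 172 CPM in wildtype), and choroid plexus 0 of 4 by edgeR (2.23 to 60.7 CPM in alzheimer and 2.54 to 32.5 CPM in wildtype), both lists with 0 at an unadjusted p under 0.05. Hippocampal subfield markers had 1 of 5 lower (Wfs1), with 1178 to 1565 CPM in alzheimer and 1235 to 1466 CPM in wildtype. Of the markers with a level, Otx2 of the choroid plexus was the 1 at a median of 0 in both genotypes. The part of these shifts in the sterol results was not tested.

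Within groups the median correlation between the 10 enzymes was low. After group and cohort means were removed from log2 CPM, the correlation between enzymes over the 30 libraries had a median of 0.070 over 45 pairs, from -0.51 (Hsd17b7 with Dhcr7) to 0.65 (Cyp51 with Msmo1), and 27 pairs were above 0. Cyp51, Msmo1 and Sc5d formed the closest trio, with Pearson's r of 0.65, 0.53 and 0.46 between them. Median reads per library were 3614, 2450.5 and 1369.5 for Cyp51, Msmo1 and Sc5d, 1595.5 for Sqle and 55 to 668 for the others. The part of read sampling in the low or negative correlations was not tested, so they do not show that enzymes moved apart. These values are a description over libraries that share depth scaling and cohort, with no test.

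The genes outside the 10 whose remaining variation was most like the mean of the enzymes were Hmgcs1 (r = 0.76, Spearman's rho = 0.79), Camsap2 (0.74 and 0.82), Syncrip (0.73 and 0.70), Golph3 (0.72 and 0.70), Efr3a (0.72 and 0.75), Sar1a (0.71 and 0.67), Arfgef1 (0.68 and 0.68) and Panx1 (0.67 and 0.59). They were taken as the 8 highest r among 11025 genes over 30 libraries. That mean did not stand for all 10 enzymes alike. With the mean of the other enzymes, r was highest for Cyp51 (0.59), Msmo1 (0.45) and Sc5d (0.41). It was negative for Tm7sf2 (-0.068), Dhcr7 (-0.28) and Hsd17b7 (-0.32), and the remaining enzymes lay between 0.069 (Lss) and 0.25 (Sqle). When the group means were kept, the first genes were Fdft1 (r = 0.92), Hmgcs1 (0.92) and App (0.88), an order that includes the genotype difference itself.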

How the data were processed

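Per the labels' protocols, RNA was extracted from snap-frozen dorsal hippocampus with a kit for fatty tissue, enriched for polyA and prepared with NEB Ultra II. Per the submitters' processing notes, cutadapt trimmed the reads and STAR 2.7.0a aligned them. How reads were counted, with which strand setting, build and annotation, is not given in the sources used here. The authors deposited raw counts per gene symbol, whole numbers with 13.9 to 31.4 M per library.

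The model, in edgeR 4.0.16 (R 4.3.3), had 1 coefficient per group of sex, genotype and diet and 1 for cohort, after filterByExpr (minimum count 10, minimum total 15) and TMM scaling, which left 12547 of 17455 genes. Each of 19 contrasts used the two-sided quasi-likelihood F test with Benjamini-Hochberg adjustment over all tested genes, and a gene is called at an adjusted p under 0.05. Counts of enzymes at an unadjusted p under 0.05 stand without the share of all genes at that threshold, which differs by contrast. For diet an unadjusted edgeR p of 0.0597 (Cyp51) was number 809 of all tested genes, and for sex one of 0.0515 (Dhcr7) was number 1901. Log2 fold changes carry ± the standard error of the fit and CPM values ± SD over libraries. Factors are averaged with equal weight over the groups. Libraries above the matching mean were counted against the wildtype or chow mean of the same sex and other factor, without regard to cohort. The largest correlation between 2 libraries of a group was 0.993, and no columns were identical.

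The members and gene lists were chosen with earlier results of these data known. All 10 enzymes are described in each contrast, and up to 4 called genes per list, those with the smallest p, are named with values, except some that are not reported here; the markers and the genes beside a threshold were named after their values were seen. Promoter windows and gene positions came from RefSeq tables for GRCr8. Alternatives were DESeq2 1.42.0 and its size factors, limma-voom (limma 3.58.1) with quality weights, no low-count filter, a filter of 1 CPM in at least 8 libraries, no cohort term, 2 surrogate variables (sva 3.50.0), each cohort alone and each library left out. Leaving out the 3 libraries highest in choroid plexus markers was added after seeing the data.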

Additional observations from a re-analysis of the deposited data

Results flagged for a closer look

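Among 60 sets of 4 libraries (an enzyme in a group of 4), 4 held a library whose gap to the nearest of the other 3 exceeded Dixon's 95% critical ratio of 0.829, and chance gives about 1 in 20 such sets. Lss stood at 36.3 CPM in male wildtype western replicate 27, above the other 3 at 30.7 to 31.4 CPM. Tm7sf2 stood at 12.9 CPM in male alzheimer chow replicate 25, below the other 3 at 15.1 to 15.4 CPM. Sc5d stood at 72.1 CPM in female wildtype chow replicate 9, below the other 3 at 75.3 to 75.7 CPM. Dhcr7 stood at 35.1 CPM in male alzheimer chow replicate 30, below the other 3 at 40.3 to 41.3 CPM, and this library was also the highest in choroid plexus markers; the part of those in the low Dhcr7 level was not tested. Without replicate 30 the genotype difference of Dhcr7 in males passed the threshold (0.16 log2, edgeR adjusted p = 0.0261), against an adjusted p of 0.0707 with it.

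For Tm7sf2 the diet difference in CPM, female minus male, was -2.54, since western females lay below and western males above the chow means that matched their genotype. That direction alone was not tested; the contrast of diet by sex on the log2 scale gave an edgeR adjusted p of 0.107.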

How the results depend on the processing

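No paired analysis was possible because the replicate numbers run from 1 to 30 and no 2 groups share one. Each value had 40 alternatives, of which 30 left out a single library and so reused nearly all the data. Of 2160 single values recomputed under the alternatives, 2059 kept their call or lack of one, 95 kept their direction and lost a call, and 6 gained one. Among the 2059, 8 values with no call differed in sign, and no called value reversed. The count of enzymes called for genotype was 8 in the fit reported, 6 to 8 as each library was left out, 4 with cohort 2 alone and 1 with cohort 1 alone. Genotype on chow gave 6, 3 to 6 as each library was left out (3 without female wildtype chow replicate 9), 0 in either cohort alone and 2 without the 3 libraries highest in choroid plexus markers. On western it gave 3, 2 to 3 as each library was left out, 1 with cohort 2 alone and 0 with cohort 1 alone. In males the count was 3, 3 to 4 with libraries left out, 1 with cohort 2 alone, 0 with cohort 1 alone and 1 without the 3 libraries; in females it was 4, 3 to 4 with libraries left out and 0 in either cohort alone. In males on chow it was 1, 0 to 2 with libraries left out, 3 by DESeq2, 2 with 2 surrogate variables, and 0 by limma-voom, with no low-count filter, in either cohort alone and without the 3 libraries. In males on western it was 1 and 0 in either cohort alone. In females on chow it was 2, 0 to 3 with libraries left out, and 0 in either cohort alone and without the 3 libraries. The cohort contrast gave 0, and 1 by DESeq2. For cohort and for genotype within a diet or sex, the share of all genes called under each alternative is not given. Those counts are values only. Each cohort alone has 14 or 16 of the 30 libraries; for the other changes the cause was not tested. Ebp for genotype had an adjusted p of 0.0612 with 2 surrogate variables. The count over all genes for sex was 105, and 254 with no low-count filter, 241 by DESeq2, 205 by limma-voom, 21 with 2 surrogate variables and 17 with cohort 2 alone; for genotype it was 1007, and 626 without the 3 libraries. Depth was lowest for Hsd17b7, with 31 to 116 reads a library, and its genotype interval was the widest of the 10.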
